A study of Mus musculus with 12 samples.

Results

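The genes described here are those of the MHC class I molecule and of its transcriptional activator: the heavy chain genes H2-K1, H2-D1, H2-Q4, H2-Q6, H2-Q7, H2-T22, H2-T23 and H2-T24, the light chain gene B2m, and Nlrc5. They were chosen by name, with earlier results of these data known, as were the gene lists used below. All 10 were found among the 2038 genes that the deposited tables list, which is therefore no independent result. RNA sequencing was done on monocytes purified by magnetic sorting from mouse bone marrow, and M-CSF, a growth factor of the macrophage lineage, was present at 20 ng/mL in the culture of every group. Control cells received M-CSF alone, treated cells also received 100 U of mouse interferon β (IFNβ), and cells were harvested at 12 h or at 24 h, which gives 4 groups of 3 replicates. The labels give no strain, genotype or age, and do not state whether the replicates are different animals. The p-values therefore reflect only how far these samples differ, and that spread may be technical. In the 3 deposited tables that give values per library, every gene has an adjusted p under 0.05 and a log2 fold change of at least 1 in either direction, so these tables hold genes selected as changed. All 10 genes are in the table of IFNβ against control at 12 h, which lists 1388 genes, and 0 of the 10 are in the other tables.

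A class I molecule is a heavy chain folded around a short peptide and bound to β2-microglobulin, the product of B2m, without which most heavy chains do not reach the cell surface. H2-K1 and H2-D1 encode the classical heavy chains, which show peptides from inside the cell to CD8 T cells, while the Q and T genes encode nonclassical heavy chains, many of which are read by natural killer cells or by T cells of restricted kinds. NLRC5, itself induced by interferons, is a transcriptional activator that has no DNA-binding domain of its own and acts at class I promoters through factors bound at the X and Y boxes, upstream of which lie an interferon-stimulated response element (ISRE) and an NF-κB site.

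The sequences upstream of the starts are shown so that their motifs can be compared, and a link between motifs and expression was not tested. RefSeq promoter entries (GRCm38.p6) were matched for 8 of the 10 genes, all but H2-T24 and Nlrc5. The 200 bases before the start are given for 6 of them, 5′ to 3′ on the strand of the gene, with capitals at matches to the motifs below other than TGATGAC, which overlaps TGACG in some of them. H2-K1 has 2 listed starts, and the one at the GENCODE start was used. The stretches of H2-K1, H2-D1, H2-Q6, H2-T22, H2-T23 and B2m lie, in that order, at chr17:34000348-34000547 (minus strand), chr17:35262894-35263093 (plus), chr17:35424650-35424849 (plus), chr17:36042743-36042942 (minus), chr17:36032702-36032901 (minus) and chr2:122147487-122147686 (plus).
H2-K1: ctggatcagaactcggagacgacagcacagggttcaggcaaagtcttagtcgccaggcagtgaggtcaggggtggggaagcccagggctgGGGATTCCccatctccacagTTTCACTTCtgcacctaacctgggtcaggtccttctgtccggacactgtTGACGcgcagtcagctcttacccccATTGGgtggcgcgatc
H2-D1: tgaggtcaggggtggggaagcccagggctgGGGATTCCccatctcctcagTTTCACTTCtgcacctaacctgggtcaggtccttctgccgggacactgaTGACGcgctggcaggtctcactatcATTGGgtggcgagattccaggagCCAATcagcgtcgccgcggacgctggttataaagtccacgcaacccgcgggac
H2-Q6: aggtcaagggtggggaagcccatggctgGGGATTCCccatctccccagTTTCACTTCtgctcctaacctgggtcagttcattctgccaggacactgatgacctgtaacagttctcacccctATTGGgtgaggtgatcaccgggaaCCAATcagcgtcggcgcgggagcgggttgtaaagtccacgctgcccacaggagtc
H2-T22: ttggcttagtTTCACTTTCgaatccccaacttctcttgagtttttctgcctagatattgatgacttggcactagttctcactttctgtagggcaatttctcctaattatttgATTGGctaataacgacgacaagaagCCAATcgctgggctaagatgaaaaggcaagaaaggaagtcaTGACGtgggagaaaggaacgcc
H2-T23: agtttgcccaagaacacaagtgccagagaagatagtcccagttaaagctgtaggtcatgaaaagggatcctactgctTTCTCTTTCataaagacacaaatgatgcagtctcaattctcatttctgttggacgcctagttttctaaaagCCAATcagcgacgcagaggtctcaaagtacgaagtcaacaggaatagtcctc
B2m: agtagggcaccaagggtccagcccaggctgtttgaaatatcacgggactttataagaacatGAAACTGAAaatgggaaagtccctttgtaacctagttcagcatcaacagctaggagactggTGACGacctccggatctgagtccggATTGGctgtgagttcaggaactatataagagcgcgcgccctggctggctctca

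Motifs were searched on both strands in the 250 bases before each start, and for each the share of all 32851 RefSeq promoters that hold it is given. ATTGG, the core of the Y box (CCAAT read on the other strand), was found in 8 of the 8 promoters, against 33.8% of all promoters. TGACG, a core of cyclic AMP response elements like that of the X2 box, was found in 6, all but H2-Q6 and H2-T23, against 17.8%. In H2-Q4 it lies next to the Y box and in H2-T22 close to the start. GGGATTCC, part of the NF-κB site, was found in H2-K1, H2-D1, H2-Q6 and H2-Q7, against 0.889%. The ISRE core was searched as GAAANNGAA and found in H2-T22, H2-T23 and B2m, against 7.13%. The 5 other promoters held GAANNGAAA, a spelling added after the sequences were seen, which 6.31% of all promoters hold. The stretch TGATGAC, also chosen after the sequences were seen, was present in H2-D1, H2-Q4, H2-Q6, H2-Q7 and H2-T22, against 2.69%. In H2-D1 and H2-Q7 it runs into TGACG, and in H2-Q6, which the sequence above shows, it does not. A match describes letters only, and neighbouring heavy chain promoters share descent, so the genes are not independent cases.

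**Figure D1:**
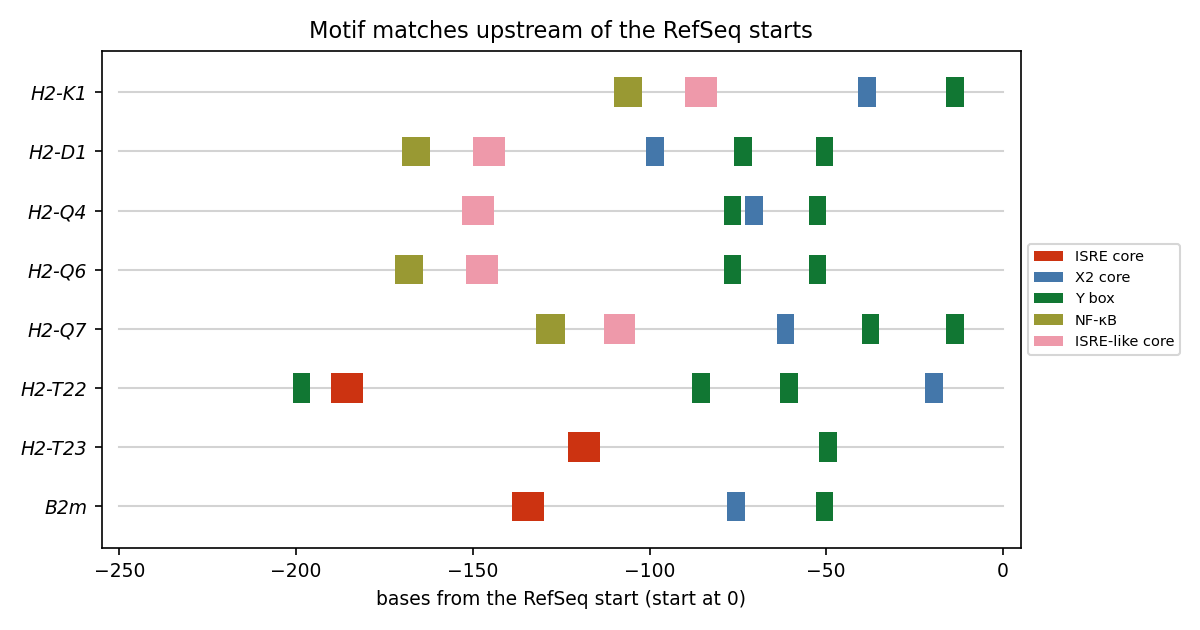
Motif matches in the 250 bases before the RefSeq start of 8 genes, plotted by distance from the start in bases. In H2-K1, H2-D1, H2-Q6 and H2-Q7 the order from left to right is NF-κB, ISRE-like core, then X2 core or Y box, and H2-T22, H2-T23 and B2m hold the ISRE core instead.

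With IFNβ at 12 h the classical heavy chain genes both rose. Levels are the authors' normalized counts per gene, given for replicates 1, 2 and 3 in turn and then as mean ± SD (n = 3). A difference is that of the group means of log2(normalized count + 1), with its standard error by limma, a linear model fitted here over all listed genes. H2-K1 (chromosome 17, 33996017 to 34000347, minus strand in GRCm38) measured 24462, 22658 and 26617 in controls and 98674, 99276 and 82519.7 under IFNβ. The groups lie far apart, and replicate 3 was the lowest of the treated libraries. The mean went from 24579 ± 1982 to 93489.9 ± 9505, a log2 difference of 1.93 ± 0.18 (limma, adjusted p = 6.83e-06). H2-D1 (chromosome 17, 35262730 to 35267499, plus strand) measured 43435, 38401 and 45195 in controls and 121277, 117919 and 98902 under IFNβ. The groups are again separate, with the smallest difference of the 10 genes, 1.41 ± 0.18 (limma, adjusted p = 0.000162), from 42344 ± 3526 to 112699 ± 12066. These are bulk samples, in which more cells of a type and more RNA per cell cannot be told apart.

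The nonclassical Q genes, which lie close together on chromosome 17, also rose, by more than the classical pair on the log2 scale. H2-Q6 (35424850 to 35430055, plus strand), of the group that encodes the lipid-anchored Qa-2 antigen, measured 293, 365 and 279.8 in controls and 4693, 4364 and 4126 under IFNβ. This was the widest gap of the 10 genes, 3.82 ± 0.17 on the log2 scale (limma, adjusted p = 9.64e-09). H2-Q7 (35439155 to 35443773, plus strand), a Qa-2 gene next to it, measured 824, 822 and 714 in controls and 7789, 6719 and 5690.5 under IFNβ, a difference of 3.09 ± 0.17. H2-Q4 (35379617 to 35385290, plus strand) measured 2822, 3064 and 2853 in controls and 22715, 23595 and 20165 under IFNβ, a difference of 2.92 ± 0.15. In each of these genes the lowest treated library was several times above the highest control. Of the 50-base stretches in the GENCODE transcripts of H2-Q6, 32.0% also occur in transcripts of another gene, most often H2-Q7, and for H2-Q7 and H2-Q4 the shares are 34.9% and 24.3%. For H2-Q7 the most frequent other gene was H2-Q5 (17.4%), which is not among the 10, ahead of H2-Q6 (17.0%). Of the stretches of H2-Q4, 11.8% occur in other genes of the 10. Reads from shared stretches could have been assigned to another gene or dropped. The split between these near copies, and the part of genes outside the 10 in their counts, are therefore uncertain. The read length is not given in the sources used here. With 100-base stretches the shares fall to 10.8%, 17.2% and 2.66%.

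The T genes, further along the same chromosome, also rose. H2-T23 (36029773 to 36032855, minus strand) encodes Qa-1, which holds peptides from the leader sequences of other class I chains and is read by the CD94/NKG2A receptor of natural killer cells. It measured 5807, 5499 and 6272 in controls and 30422, 29183 and 26475 under IFNβ, a difference of 2.29 ± 0.15 (limma, adjusted p = 3.48e-07). The groups are far apart, and this was the smallest difference of the T genes. H2-T22 (36037128 to 36042747, minus strand), whose product is a ligand of some γδ T cell receptors and binds no peptide, measured 1925, 1544 and 1842 in controls and 16723, 15459.9 and 14054 under IFNβ, a difference of 3.12 ± 0.16. H2-T24 (36005695 to 36020560, minus strand) measured 1814, 2364 and 1496 in controls and 18816, 19291 and 16476 under IFNβ, a difference of 3.29 ± 0.18. H2-T24 varied most between controls among the heavy chains, with replicate 2 high and replicate 3 low, and was even across the treated libraries. Of the 50-base stretches of H2-T22, 43.9% occur in another gene, mainly H2-T10, against 28.8% for H2-T23 and 3.17% for H2-T24. The antisense gene A930015D03Rik overlaps these T genes and Gm11131 overlaps H2-Q4, and no source used here gives the strand setting of the counting, so antisense reads cannot be told apart.

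B2m (chromosome 2, 122147686 to 122153083, plus strand), the light chain, measured 46135, 40417 and 49675 in controls and 206617, 218031 and 172628 under IFNβ. Each treated library lay well above each control, and the difference was 2.13 ± 0.19 (limma, adjusted p = 6.22e-06). B2m shares 0 of its 50-base stretches with another gene, and so does Nlrc5. B2m overlaps the gene Patl2 on the other strand, and Nlrc5 overlaps 9330175E14Rik on the other strand and Mir7072 on its own.

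Nlrc5 (chromosome 8, 94434356 to 94527272, plus strand) measured 2115, 2009 and 1146 in controls and 13933, 11422 and 12683 under IFNβ. Control replicate 3 was well below the other controls, and the treated libraries were even, so Nlrc5 had the largest relative spread in the controls of the 10 genes. Its mean went from 1756 ± 532 to 12679 ± 1256, a difference of 2.90 ± 0.22 (limma, adjusted p = 1.31e-06). Without control replicate 3 it was 2.62 ± 0.18.

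**Figure D2:**
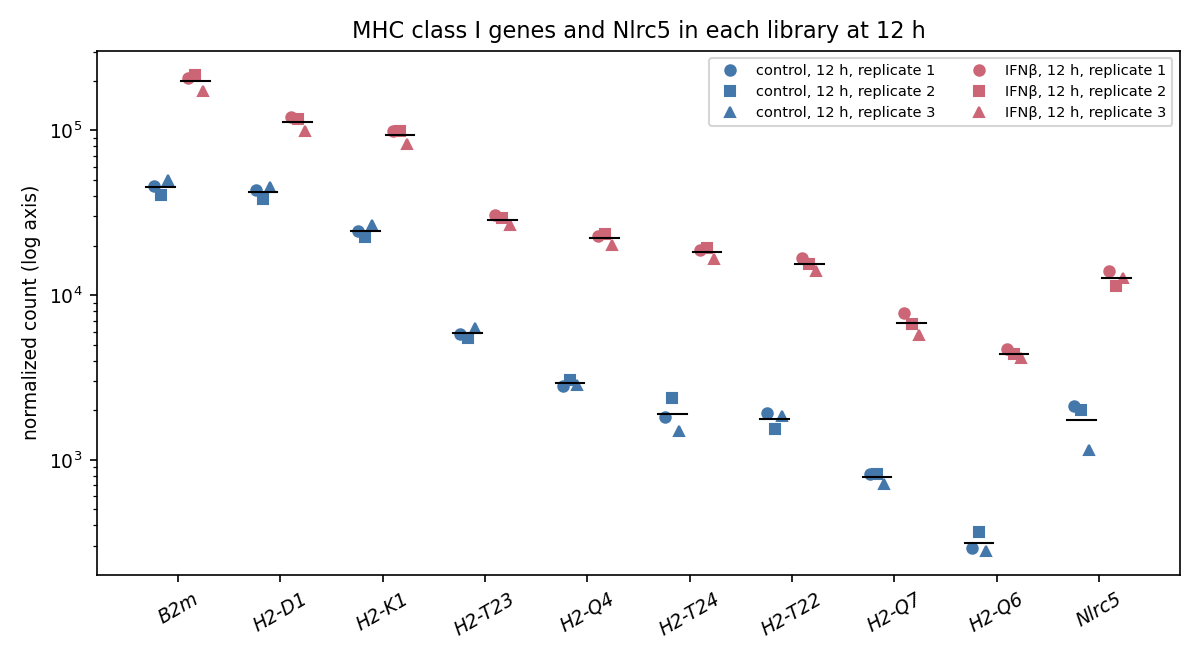
Normalized counts of the 10 genes at 12 h on a log axis, each point 1 library (3 control, 3 IFNβ; marker shape gives the replicate number) and each line the group mean. The treated libraries lie above the controls in all 10 genes, and control replicate 3 of Nlrc5, at 1146, lies apart from the other controls.

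All 10 genes were higher with IFNβ in the authors' deposited table, where 5.70% of the 15661 genes that its p-values imply were tested were called higher. Limma, fitted to the 1388 listed genes alone, called 10 of the 10 higher and 0 lower, against 833 higher and 376 lower of those 1388. These are 5.32% and 2.40% of the genes tested, but genes outside the list could not be called. Since the listed genes were already selected as changed, the limma calls add little to the listing. Of the 10 genes, 8 in the authors' deposited table, all but H2-K1 and H2-D1, had a log2 fold change of at least 2, against 2.89% of genes tested. The groups did not overlap in any of the 10. This also held, with a rise, for 886 listed genes, or 63.8% of the list, of which 892 are higher. Nearly every listed gene that rose thus had separate groups, since the list holds genes selected as changed. The direction was the same under each scaling tried, but scaling every library by the median ratio over the listed genes, of which 892 of 1388 are higher, lowers each difference by 1.27 and leaves H2-D1 at 0.14 ± 0.13 (limma, adjusted p = 1, against 1.43e-05 to 0.00447 under the other alternatives). This shift is the same for every gene. A rise below 1.27 therefore changes sign by construction, and a fall grows, here and wherever this scaling is given below.

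The size of the rise was unequal. From the largest to the smallest, the order was H2-Q6, H2-T24, H2-T22, H2-Q7, H2-Q4, Nlrc5, H2-T23, B2m, H2-K1 and H2-D1. In the main fit, which does not pair the replicates, the gaps between neighbours were larger than the standard errors of both only after H2-Q6 (0.53), Nlrc5 (0.61), B2m (0.21) and H2-K1 (0.52). With the replicate number as a block the errors were smaller. They were 0.130 for H2-T24, 0.126 for H2-T22, 0.125 for H2-Q7 and 0.118 for H2-Q4. The gaps after H2-T24 (0.164) and H2-Q7 (0.162) then also exceeded the errors of both neighbours. No test of the gaps was made. The median difference of the 8 heavy chain genes was 3.01, against 1.97 over the 892 listed genes that were higher with IFNβ. H2-K1 and H2-D1 lie below that value and the 8 other genes above it. As fold changes of the mean counts, the rise ran from 2.66-fold in H2-D1 and 3.80-fold in H2-K1 to 9.62-fold in H2-T24 and 14.0-fold in H2-Q6.

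**Figure D3:**
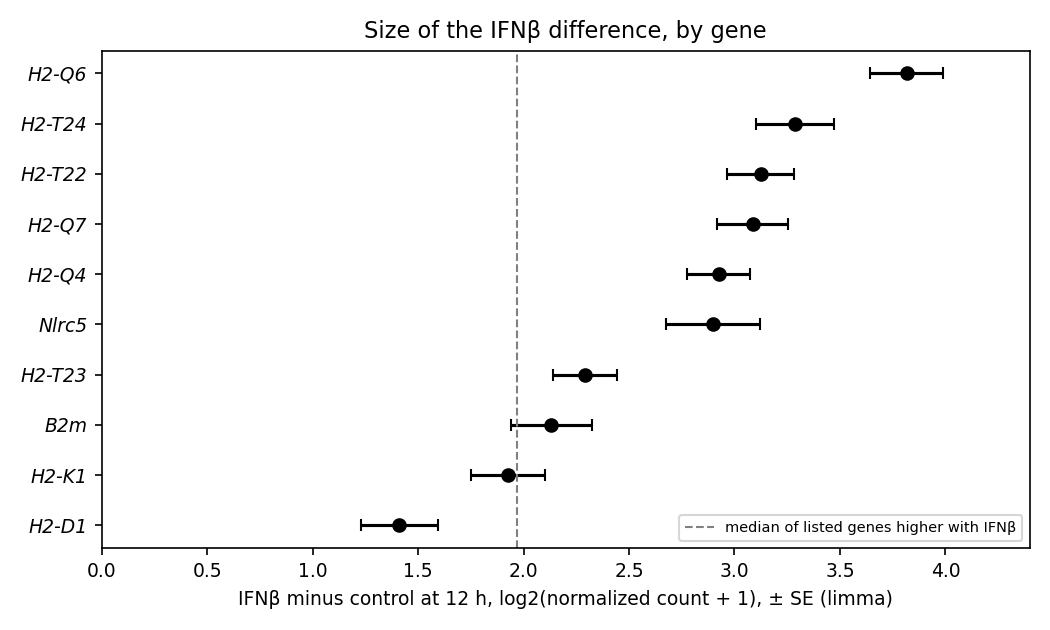
Difference between IFNβ and control at 12 h in mean log2(normalized count + 1) for each gene, with limma standard errors as bars. H2-Q6 is the largest at 3.82 and H2-D1 the smallest at 1.41, and the dashed line marks the median of the 892 listed genes higher with IFNβ, 1.97.

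The makeup of the heavy chain counts therefore shifted within each library, a quantity in which the scaling of the library cancels. H2-K1 and H2-D1 together gave 83.4, 81.7 and 84.2% of the counts of the 8 heavy chain genes in the controls and 68.5, 68.8 and 67.6% with IFNβ, or 83.1 ± 1.28% against 68.3 ± 0.619%. Per exonic length the same share was 81.1 ± 1.21% and 66.6 ± 0.648%. No test is given for such a sum over chosen genes, but the groups do not overlap and differ by many times the SD. The fall came in H2-D1, whose share went from 52.6 ± 1.05% to 37.3 ± 0.461%. The share of H2-K1 was 30.5 ± 0.606% in the controls and 31.0 ± 0.404% with IFNβ, with overlapping groups. The Q genes together went from 5.01 ± 0.608% to 11.04 ± 0.115% and the T genes from 11.9 ± 0.670% to 20.7 ± 0.510%, and each of these 6 genes had a higher share in every treated library than in any control. Most of the added counts, which are reads and not molecules, were still from the classical pair: of the 221318 normalized counts added to the heavy chain sum, 62.9% were from H2-K1 and H2-D1, 23.8% from the T genes and 13.2% from the Q genes.

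**Figure D4:**
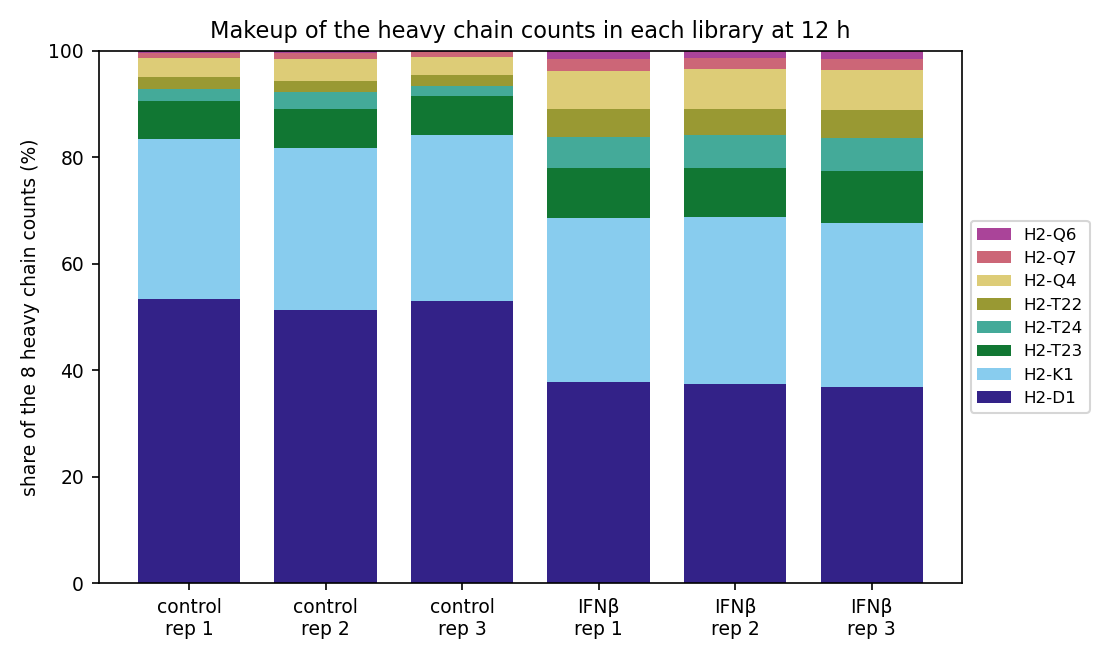
Share of each of the 8 heavy chain genes in their summed normalized counts, as a percent, for the 3 control and 3 IFNβ libraries at 12 h. The H2-D1 band shrinks from 52.6% to 37.3% on average while the H2-K1 band stays near 31.0% and the bands of the Q and T genes widen.

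Ratios between genes within a library show the same unequal change with little spread. The log2 ratio of H2-K1 to H2-D1 was -0.83, -0.76 and -0.76 in the controls and -0.30, -0.25 and -0.26 with IFNβ. The treated libraries lie apart from the controls by about 0.52, with an SD of 0.04 in the controls and 0.03 in the treated libraries. The log2 ratio of H2-T22 to H2-T23 went from -1.73 ± 0.12 to -0.90 ± 0.03, and that of H2-Q6 to its near copy H2-Q7 from -1.34 ± 0.16 to -0.61 ± 0.13. The heavy chain sum kept closer to B2m: its log2 ratio to B2m was 0.82, 0.89 and 0.78 in the controls and 0.64, 0.53 and 0.64 with IFNβ. The mean ratio differed by -0.23, with no overlap of the groups and no test. Nlrc5 had a log2 ratio to B2m of -4.45, -4.33 and -5.44 in the controls and -3.89, -4.25 and -3.77 with IFNβ. The groups do not overlap but nearly touch, at control replicate 2 and IFNβ replicate 2. The mean difference was 0.77, and 0.42 without control replicate 3.

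Levels of different genes can be compared only per length, here as normalized counts per kilobase of exon of the protein-coding transcripts in GENCODE M21. On this scale B2m had 52801 ± 5432 in the controls and 231502 ± 27463 with IFNβ, the highest level of the 10 genes in both. H2-D1 was above H2-K1 in the controls, at 20145 ± 1678 against 14851 ± 1198, and the groups of 3 libraries did not overlap. With IFNβ the means were 53615 ± 5740.4 for H2-D1 and 56489 ± 5743 for H2-K1, within the spread between libraries, although H2-K1 was the higher of the pair in each of the 3 treated libraries. Within each library, where the 2 genes are paired, the log2 ratio of H2-K1 to H2-D1 per length was -0.44 ± 0.04 in the controls. With IFNβ it was 0.08 ± 0.03, so the pair changed order, by a small margin. The order with IFNβ rests on the exonic lengths used, since without them this ratio was -0.27 ± 0.03. H2-T23 followed, in controls and under IFNβ, at 3980.5 ± 264 and 19493 ± 1371, then H2-Q4, at 1625 ± 73.5 and 12358 ± 993. H2-T22 and H2-T24 did not differ beyond their spread in either group, at 981 ± 111 and 867 ± 201 in the controls and 8539 ± 739.7 and 8338 ± 691 with IFNβ. H2-Q7 stood at 512 ± 41.0 and 4383 ± 683, above H2-Q6 at 150.02 ± 22.03 and 2108 ± 137. Nlrc5, a regulator, was low, at 216 ± 65.5 in the controls, where its spread overlaps that of H2-Q6, and 1561 ± 155 with IFNβ, the lowest of the 10.

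Genes that supply class I with peptides were also higher. Of 13 genes for peptide loading and the immunoproteasome, the authors' deposited table lists 9 as higher and 0 as lower, against 5.70% higher of all genes tested, and limma called 9. Tap1, a subunit of the peptide transporter, went from 4411 ± 290.0 to 30223 ± 3185 (2.77 ± 0.16 on the log2 scale), and Tapbp, which encodes tapasin, the bridge between transporter and heavy chain, from 15476 ± 1106 to 66954 ± 5243 (2.11 ± 0.17). The immunoproteasome subunit gene Psmb9 went from 1449 ± 194 to 6477 ± 792 (2.16 ± 0.17), and Tapbpl, a tapasin relative that edits peptides, from 1448 ± 42.5 to 5235 ± 727 (1.85 ± 0.16). Tap2, Psmb8, Psmb10, Psme1 and Psme2 were the others. Calr, Canx, Pdia3 and Erap1 were not listed. With median ratio scaling 8 of the 9 kept their direction, Tap2 did not, and 5 passed limma. Under that scaling 355 of the 1388 listed genes were called higher, against 833 without it.

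Some other heavy chain genes rose too, while the class I-like genes outside the family that the 12 h table holds were lower there. Of 32 further class I heavy chain names, 22 of which are in the annotation, the authors' deposited table lists 6 as higher and 0 as lower, against 5.70% higher of all genes tested. Limma, which could call only listed genes, called 5 of these 6 higher, against 833 of all 1388 listed genes. With median ratio scaling it called 0 of them higher, and 355 of the 1388 listed genes. H2-M3, whose product presents formylated peptides, went from 602 ± 31.3 to 1999.6 ± 153 (1.73 ± 0.16). The predicted genes Gm7030, Gm10499 and Gm8909 rose at low counts, to means of 59.0, 45.1 and 15.9 normalized counts. H2-T-ps also passed and H2-Q1 did not (1.30 ± 0.41, limma, adjusted p = 0.0915), and H2-T-ps changes sign with median ratio scaling. Some of these genes share stretches with far more abundant heavy chains. Of the 50-base stretches, 12.9% of those of H2-T23 occur in H2-T-ps and 6.68% of those of H2-D1 in H2-Q1. Of the 100-base stretches of H2-T23, 4.44% occur in Gm7030. Whether reads of the abundant genes were counted for these low ones was not tested. Of 12 class I-like genes outside this family, 0 were listed as higher and 3 as lower, against 3.17% lower of all genes tested. Fcgrt, which encodes the neonatal Fc receptor, a heavy chain that also pairs with β2-microglobulin, fell from 1875 ± 325 to 383 ± 34.3 (-2.28 ± 0.19, limma, adjusted p = 2.97e-06). Hfe, the heavy chain of iron regulation and another partner of β2-microglobulin, fell from 4304 ± 878 to 1578 ± 88.6 (-1.43 ± 0.18). Raet1e, which encodes a stress ligand that binds no β2-microglobulin, stood at -1.03 ± 0.35 and did not pass limma (adjusted p = 0.139). With median ratio scaling all 3 of these genes passed as lower. That scaling moves every gene down by 1.27, and 485 listed genes were called lower under it, against 376 without it.

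Genes for regulators of class I and class II transcription were listed in both directions. Irf7 went from 1361 ± 244 to 102061 ± 17034 (6.23 ± 0.19) and Stat2 from 4105 ± 426 to 45267 ± 5363 (3.46 ± 0.16). Irf9, Irf1 and Irf2 were higher as well, Irf2 not under median ratio scaling. Ciita, the relative of Nlrc5 that activates class II genes, fell from 6354 ± 586 to 925 ± 194 (-2.79 ± 0.18). The factors of the X and Y boxes, Rfx5, Rfxap, Rfxank, Nfya, Nfyb, Nfyc, Creb1 and Atf1, were not listed. Of 10 class II genes, 5 were listed as lower and 0 as higher, against 3.17% lower of all genes tested. Limma, which could call only listed genes, called all 5 lower, from H2-Ab1 (-2.36 ± 0.19) to H2-DMa (-1.03 ± 0.17). It called 376 of all 1388 listed genes lower.

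**Figure D5:**
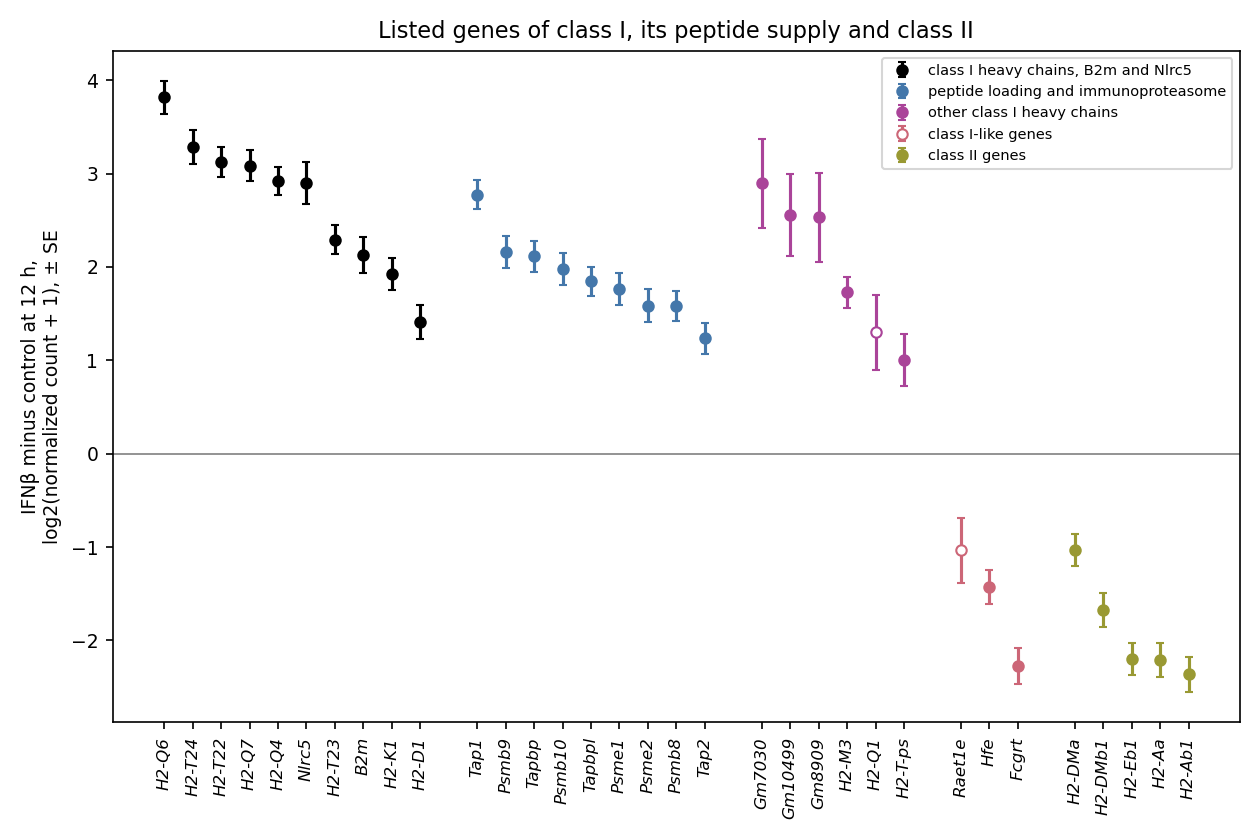
Difference between IFNβ and control at 12 h in mean log2(normalized count + 1), with limma standard errors as bars, for the 10 genes and for the listed genes of 4 related lists; filled points passed limma at adjusted p under 0.05. Heavy chains, B2m, Nlrc5 and the peptide supply lie above 0, and Fcgrt, Hfe and the class II genes lie below it.

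Over the 6 libraries of the 12 h table, the genes whose log2 profile, centred on its mean, lay nearest to that of Nlrc5 among 1378 other genes were Lrrc16a, Parp14 and Gbp8, at root mean square distances of 0.0854, 0.120 and 0.178. The nearest to the mean profile of the 8 heavy chains were Pla2g16 (0.0291), Ccrl2 (0.0752) and Tap1 (0.0809). Among the heavy chains themselves H2-Q4 lay nearest to that mean (0.105) and H2-D1 furthest from it (0.667). These distances are a description over 6 libraries in 2 groups, with no test.

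Between 12 h and 24 h, 0 of the 10 genes are in the authors' deposited tables. Without IFNβ the table holds 3.12% of genes tested as higher and 0.961% as lower at 24 h, and with IFNβ 2.16% and 1.72%. A gene outside a table missed the authors' thresholds or was not tested, and its values are not analysed here, so this does not show steady levels. The table of IFNβ against control at 24 h names 5 genes, none of them among the 10. It gives a fold change alone, with no library values or p-values. It therefore does not show whether the 10 genes still differed with IFNβ at 24 h. Of the related genes, Tapbpl was lower at 24 h than at 12 h with IFNβ, from 4687 ± 689.8 to 2265 ± 109.8 (-1.04 ± 0.18, limma, adjusted p = 0.00856). In the controls Mr1, a class I-like gene that presents vitamin B metabolites, was higher at 24 h, from 118 ± 13.3 to 309 ± 42.0 (1.37 ± 0.25, limma, adjusted p = 0.0274). H2-Q10 stood at 1.23 ± 0.39 there and did not pass limma (adjusted p = 0.309). H2-M2 was listed at 0 in the 12 h controls and at 2.93, 5.49 and 8.30 at 24 h. Of 10 class II genes, 3 were listed as higher at 24 h in the controls and 0 as lower, against 3.12% higher of genes tested. Limma called 2 of them, H2-Aa (1.11 ± 0.19, limma, adjusted p = 0.0235) and H2-Eb1 (1.02 ± 0.18, limma, adjusted p = 0.0272). With IFNβ 0 of the 10 class II genes were listed between 12 h and 24 h.

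IFNβ replicate 3 was the lowest treated library in 9 of the 10 genes, with a median deviation of -0.136 from the group mean on the log2 scale, against -0.0459 over all listed genes. Of 10 monocyte and macrophage markers, Fcgr1 and Ly6c2 were in the 12 h table, with summed counts of 24761 to 25121 in the controls and 193115 to 249525 with IFNβ, and the others, Csf1r among them, were not listed, so their level cannot be checked. Of 12 T and NK cell markers Gzmb and Gzma were listed, both higher with IFNβ, with sums of 39.9 to 119 in the controls and 300.5 to 675 with IFNβ. Of 9 dendritic cell markers 5 were listed (Bst2 and Xcr1 higher, Cd209a, Itgax and Flt3 lower), with sums of 2594 to 2819 and 13011 to 17559.6. The rise of this sum was mostly that of Bst2, whose mean went from 706 to 14854, and Xcr1 went from 14.1 to 213. The 3 lower markers went from 278 to 9.31 (Cd209a), 625 to 122 (Itgax) and 1118 to 445 (Flt3), so the sum does not stand for dendritic cells. Of 6 stromal and endothelial markers Kdr and Cdh5 were higher, with sums of 248 to 258 and 13876 to 25512. Nearly all of this sum was Kdr (means of 251 and 21081), and Cdh5 went from 2.74 to 39.3. Blk, of 7 B cell markers (14.96 to 40.02 and 3.996 to 10.27), was listed as lower and did not pass limma, and 0 of 10 neutrophil markers were listed. Defining T cell markers such as Cd3e were not listed, so it is not known whether they are near 0. The part of other cells in the class I values was not tested.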

How the data were processed

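RNA sequencing values of 12 samples in 4 groups of 3 were used as deposited. The tools named, per the submitters' processing notes, are bcl2fastq, HISAT2 2.2.1 and edgeR 3.3.3, with the GRCm38 build. The counting tool, the annotation, the strand setting and any filter: not given in the sources used here. In 3 tables the authors deposited a signal per gene and library, read from its values as counts normalized within each table. Total depth is unknown, because the tables hold selected genes, and no counting interval can be given. Per the file headers, the authors also deposited log2 fold changes with raw and adjusted p-values for each gene. Every library column was matched to a sample by name, and no pair of libraries in a table held identical values.

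Rows were found by exact gene name. All genes of the 12 h table, as log2(value + 1), were fitted with limma 3.58.1 (R 4.3.3) and a variance trend, after a check on simulated data. Benjamini-Hochberg adjustment was over 15661 genes, the number tested by the authors as implied by their raw and adjusted p-values. Since the listed genes were selected by the authors for small p-values, this describes them and is no independent test. Ratios and shares carry no test. Same-numbered replicates deviated together (r across genes, which are not independent, 0.159 to 0.287 in 3 pairs, against -0.251 to 0.115 for different numbers), so the labels' replicate numbers are taken to pair the samples. The main fit does not use this pairing, and the alternative with a replicate block does. The planned comparison of proteins was replaced by one of transcripts. Coordinates and lengths are from GENCODE M21 (GRCm38), promoters from RefSeq. The 10 genes and the lists were chosen with earlier results of these data known. Of each list, up to 4 listed genes with the smallest deposited p were given values, and a few others, named to complete a count or a range, were chosen after their values were seen. As the genes most like Nlrc5 and the heavy chain mean, the 3 at the smallest root mean square distance were named. Some genes of the lists and a motif are not reported here. Alternatives were other pseudocounts, filters, thresholds, scalings, the replicate block, no trend and each library left out. Python 3.11.15 with numpy 2.4.6, pandas 2.3.3 and matplotlib 3.10.9 was used.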

Additional observations from a re-analysis of the deposited data

How the results depend on the processing

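A replicate block left the count at 10 of the 10 genes called higher and changed no call of these genes. The count was also 10 with pseudocounts of 0.1 and 10, without the lowest 25% of genes, without a variance trend, at a threshold of 0.01, adjusted over the table alone and without each library in turn (lowest 10, highest 10). It was 9 with median ratio scaling, where H2-D1 did not pass, and 8 genes had an authors' log2 fold change of at least 2. Of 140 values of single genes under these settings 139 kept their call and all kept their sign. Over all listed genes the calls moved from 833 higher and 376 lower to 355 and 485 with median ratio scaling, or from 68.9% to 42.3% higher, to 756 and 231 at the threshold of 0.01, and to 743 and 240 without IFNβ replicate 1.

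The difference in the share of H2-K1 and H2-D1 was -14.8 percentage points, -13.4 without H2-Q6 and H2-Q7, -14.6 per exonic length, and -15.5 to -14.3 without 1 library. That of the log2 ratio of heavy chains to B2m was -0.23, -0.26 without H2-Q6 and H2-Q7, -0.19 per length, and -0.25 to -0.19 without 1 library. For Nlrc5 to B2m it was 0.77, and 0.42 (without control replicate 3) to 0.97 without 1 library. Alternatives for the time tables and the interaction were not run, because 0 of the 10 genes are in those tables. What depth limits cannot be given, since total depth is unknown. Adding GAANNGAAA and TGATGAC to the motifs was decided after seeing the data.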

Other observations

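Genes for receptors of class I and for relatives of such receptors, not all of which read class I chains, moved in both directions at 12 h. Of 14 names, 12 of which are in the annotation, 3 were higher with IFNβ and 1 lower in the authors' deposited table, against 5.70% and 3.17% of all genes tested, and limma called these 4, or 2 higher and 1 lower with median ratio scaling. Klrk1, which encodes NKG2D, the receptor of the stress ligand that Raet1e encodes, went from 144 ± 26.3 to 1549.8 ± 107 (3.43 ± 0.21 on the log2 scale). Klra2, a Ly49 family gene, went from 121 ± 46.3 to 966 ± 407 (2.96 ± 0.38), with IFNβ replicate 3 at 505 below 1276 and 1117 in the others. Lilrb4a went from 34495 ± 5501 to 69831 ± 12538 (1.01 ± 0.20), a rise that changes sign with median ratio scaling. Klrb1b, an inhibitory lectin-like receptor whose known ligand is not a class I chain, fell from 559 ± 55.1 to 184 ± 30.3 (-1.61 ± 0.22). It was listed again between 12 h and 24 h with IFNβ, at -1.87 ± 0.55, and did not pass limma there (adjusted p = 0.162). In the controls Klra17 was higher at 24 h than at 12 h (2.01 ± 0.35, limma, adjusted p = 0.0239).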
